A study of Mus musculus with 6 samples.

Results

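Socs2 (ENSMUSG00000020027.18) encodes suppressor of cytokine signalling 2. It was examined here through the m6A levels of its RNA in HCICs, the HCC-initiating cells cultured from mouse livers. Its members were the positions of the deposited m6A table that lie within the gene body, chr10:95221224-95253042 on the minus strand of GRCm39. The rule used the coordinates alone and no m6A value. It found 61 positions out of the 567667 rows of the table. RNA was sequenced directly on nanopores, which reads modified adenosines out of the current of the native RNA strand, in 6 samples of primary culture. There were 3 MTH-WT samples (labelled Mthfd1l wildtype) and 3 MTH-D samples (labelled Mthfd1l knockout), each numbered 1 to 3 and all in batch 1.

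All of these cells came from livers of male C57BL/6 mice given diethylnitrosamine (DEN), a hepatic procarcinogen, as pups and sampled months later. The study had 1 line from a control (CTL) mouse and 2 from double knock-in (DKI) mice, whose MDM2 carries the M2-C305F change and whose MDMX carries the MX-3SA change, which cuts the ribosomal stress route and the MDMX phosphorylation route to p53. MTH-D cells were made with lentiviral CRISPR/Cas9 and guides against 3 exons of Mthfd1l, the mitochondrial enzyme that makes formate. MTH-WT cells received the empty vector that expresses Cas9. Both kinds of cells were picked as colonies grown from single cells, so a sample is clonal and not the whole line. In the MTH-D cells called HCIC-2 the study saw only a small deletion in Mthfd1l. The labels do not name the HCIC line of a sample, so all 6 samples were used and the samples numbered 1 and 3 were also taken alone. Fractions of m6A are given with no read count, so the depth of a position is not stated. The table holds no expression levels, so neither the knockout nor the cell type was checked here.

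SOCS2 belongs to the family of SOCS proteins, which are switched on by cytokine signalling and then damp it. It binds phosphorylated receptors such as the growth hormone receptor through its SH2 domain. Through its SOCS box it recruits an Elongin and Cullin 5 ubiquitin ligase that marks the receptor for degradation. In liver it is a target of the growth hormone, JAK2 and STAT5 pathway, and mice without it overgrow. m6A is placed on mRNA by the METTL3 and METTL14 methyltransferase, with S-adenosylmethionine as the methyl donor, mostly in long exons and near stop codons. It is read by proteins such as YTHDF2, which speeds mRNA decay. The study took Socs2 as a positive control, from among the genes whose m6A differed most between MTH-D and MTH-WT cells in these libraries, with the lines HCIC-1 and HCIC-3 in its comparison. The difference between groups at Socs2 is therefore not independent of how the gene came to be chosen, and the tests below describe these libraries only.

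The m6A of Socs2 was concentrated within 1581 bp of the gene, and the difference between the groups did not pass any test. The exact permutation test of 3 samples against 3 cannot go below p = 0.10. On simulated data, the fit of 32 kb windows called 0 of 200 windows shifted by 5 points. Failing these tests therefore does not show that the groups were alike. At the 18 positions that averaged at least 10% over the 6 samples, MTH-WT samples averaged 42.5% ± 1.34 and MTH-D samples 39.1% ± 4.62 (SD, n = 3 each). The MTH-D sample was the lower of the pair numbered 1 and of the pair numbered 3. It was the higher of the pair numbered 2.

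The 61 positions formed 3 blocks, parted by more than 400 bp without a listed position. Because the gene runs on the minus strand, its RNA is read from the high to the low coordinates. The block nearest the 5′ end was the 1 position 95252536, which averaged 0.412%. The next block, chr10:95250768-95251039, held 8 positions over 272 bp with means of 0.475% to 11.8%. The block nearest the 3′ end, chr10:95247372-95248952, held the remaining 52 positions over 1581 bp. It contained 17 of the 18 positions that averaged at least 10%, and all 7 that averaged at least 50%. The table has no other row within 88640 bp on the 3′ side or 64239 bp on the 5′ side of these positions, and none in the last 26148 bp of the gene body. The 5′ end of the gene body lies 506 bp beyond the first listed position.

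For orientation, GENCODE M21 on GRCm38 lists 4 protein-coding transcripts that hold the whole coding sequence. One of them is short, at 948 nt with 2 exons, a last exon of 495 bp and a 3′ UTR of 37 nt, with 0 DRACH adenosines in that UTR. The other 3 are 2153 to 2222 nt long with 3 exons each. In each of these 3 the last exon is 1621 bp long, the coding sequence 597 nt and the 3′ UTR 1163 nt. The last exon holds 54 adenosines in DRACH (A, G or T, then A or G, the adenosine, C, and A, C or T), the sequence at which m6A is mostly placed. The whole transcript holds 66 to 69, of which 21 lie in the coding sequence and 38 in the 3′ UTR. The deposited positions are in GRCm39 and were not placed on these transcripts, so no position is assigned here to an exon, the coding sequence or the UTR, and the bases around it were not read.

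**Figure D1:**
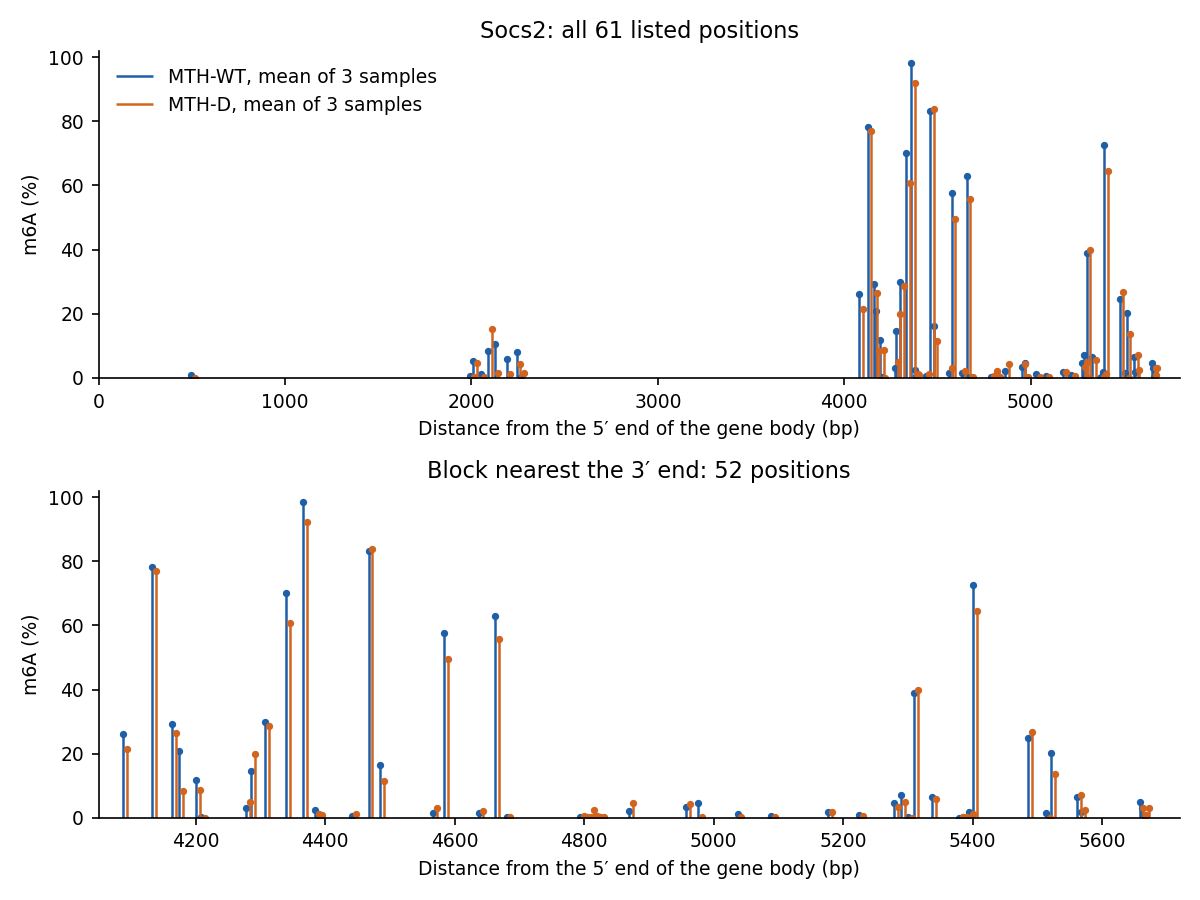
Mean m6A (%) at the 61 listed Socs2 positions against the distance in bp from the 5′ end of the gene body, for MTH-WT (blue) and MTH-D (orange) samples, n = 3 each; the lines of the groups are set slightly apart to be seen. The upper panel shows all positions and the lower panel the 52 positions of the 3′ block, where a stretch of 600 bp without a position above 5% parts the high ones.

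Within the 3′ block, the methylated positions lay in 2 stretches on either side of a gap. The stretch nearer the 5′ end, chr10:95248377-95248952, held 20 positions over 576 bp. Of these, 13 averaged at least 10%, and the highest averaged 95.2%. The middle stretch, chr10:95247760-95248359, held 16 positions over 600 bp, and none of them averaged 5%. Its highest position averaged 4.05%, and its highest single value in any sample was 9.62%. The stretch nearer the 3′ end, chr10:95247372-95247749, held 16 positions, of which 4 averaged at least 10% and the highest 68.5%. These borders were drawn after the values were seen, at the widest distance (628 bp) between positions averaging 5% or more, so they carry no test. The level also changed over short distances: position 95248554 averaged 13.9% and position 95248572, 18 bp away, averaged 83.4%.

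Socs2 positions carried m6A more often than the rows of the table as a whole. Of the 61, 18 (29.5%) averaged at least 10%, against 14.3% of all rows. At 50% or more there were 7 (11.5%), against 4.37% of all rows. The median over the positions was 2.41% at Socs2 and 0.958% over all rows. These shares were not tested. The cut at 10% fell in a wide space: the lowest position inside it averaged 10.2% and the highest outside averaged 6.74%.

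The most methylated position of Socs2 was 95248673. It was listed at 96.3%, 98.7% and 100% in MTH-WT samples 1, 2 and 3 and at 91.2%, 97.6% and 87.5% in the MTH-D samples of the same numbers. Most molecules were thus called methylated in every sample, at 87.5% or more. The MTH-D sample was lower in each of the 3 pairs, although MTH-D sample 2 lay above MTH-WT sample 1. The group means were 98.3% ± 1.88 and 92.1% ± 5.09 (SD, n = 3 each). Its unadjusted p was 0.0448 and its adjusted p 0.939 in limma, fitted across all rows with Benjamini-Hochberg adjustment.

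The next positions by level differed little between groups. Position 95248572 was at 77.8%, 89.5% and 82.0% in MTH-WT samples 1 to 3 and at 79.7%, 85.1% and 86.4% in MTH-D samples 1 to 3. Position 95248907 was at 85.7%, 71.0% and 77.8% in MTH-WT and at 77.5%, 81.1% and 72.2% in MTH-D. At both the groups overlapped, and the MTH-D means minus the MTH-WT means were 0.59 and -1.19 points, smaller than the SD of either group.

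MTH-D samples 1 and 3 both lay below the other 4 samples at 7 of the 18 positions. These were 3 of the 4 positions averaging 50% to 70% and 4 of the remaining 14 (95248554, 95248673, 95248865 and 95248876). The count and its levels were not planned, and the same count was not made over all positions averaging at least 10%. Over all of those, MTH-D 3 and MTH-D 1 had the lowest sample means too, 35.8% and 37.0%. At position 95247638, MTH-WT samples 1 to 3 were at 70%, 69.6% and 78.0% and MTH-D samples at 60.6%, 70.1% and 63.0%. Position 95248700 was at 61.5%, 72.4% and 76.5% in MTH-WT and at 52.5%, 71.1% and 58.3% in MTH-D. MTH-D samples 1 and 3 were the lowest 2 samples at both positions, while MTH-D sample 2 lay among the MTH-WT samples. At position 95248455, MTH-WT samples were at 56.7%, 56.0% and 60.5%, MTH-D samples 1 and 3 at 46.8% and 42.1%, and MTH-D sample 2 at 59.8%. Position 95248377 was at 63.6%, 61.8% and 63.4% in MTH-WT and at 50%, 57.1% and 60% in MTH-D. It was the 1 position of the 18 at which all MTH-D values lay below all MTH-WT values, a pattern that 3.38% of all positions averaging at least 10% showed. The reverse pattern was found at 0 of the 18 and at 2.07% of all. The differences of the group means at these 4 positions were -8.01, -9.53, -8.17 and -7.24 points, in the order given.

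At the next 3 positions by level the groups overlapped widely. Position 95247730 was at 29.3%, 38.5% and 49.1% in MTH-WT samples 1 to 3 and at 36.2%, 41.3% and 41.7% in MTH-D. Position 95248732 was at 21.7%, 34.9% and 33.3% in MTH-WT and at 21.3%, 31.3% and 33.3% in MTH-D. At the latter, the 2 samples numbered 3 had the same value. Position 95248876 was at 26.1%, 32.5% and 29.2% in MTH-WT and at 24.5%, 33.6% and 21.1% in MTH-D. The differences of the means at these 3 positions were 0.787, -1.36 and -2.87 points.

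The single largest difference in each direction was at a position averaging under 20%. The next largest falls were at the 4 positions averaging 50% to 70%, given above. Position 95248865 had the largest difference of the 18, -12.4 points. It was at 35.3%, 12.2% and 14.8% in MTH-WT samples 1 to 3 and at 2.33%, 15% and 7.69% in MTH-D samples. MTH-WT sample 1 stood apart from the other 5 samples there. Position 95250942, the only one of the 18 in the middle block, had the largest difference upward, 7.01 points. It was at 0%, 12.8% and 12% in MTH-WT and at 12.2%, 21.2% and 12.5% in MTH-D. Position 95248753 was 5.27 points higher in MTH-D, at 25.0%, 19.0% and 0% in MTH-WT and 24.1%, 26.6% and 9.09% in MTH-D. In both of these a value listed at 0 in 1 MTH-WT sample lowered the group mean, and the other samples overlapped. Position 95247553 was 1.95 points higher in MTH-D, at 17.8%, 22.6% and 33.9% in MTH-WT and 29.1%, 27.6% and 23.3% in MTH-D.

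The remaining 4 positions averaged between 10.2% and 23.8%, with differences of -6.61 to -3.26 points. Position 95247518 was at 26.3%, 18.4% and 15.8% in MTH-WT and at 18.8%, 21.8% and 0% in MTH-D. Position 95248554 was at 16.7%, 16.7% and 15.6% in MTH-WT and at 11.8%, 18.1% and 4.55% in MTH-D. MTH-D sample 3 was the lowest of the 6 at both. Position 95248952 was at 24.0%, 30.7% and 24.1% in MTH-WT and at 24.6%, 25.2% and 14.3% in MTH-D, and again MTH-D sample 3 was lowest. Position 95248839 was at 4.55%, 11.0% and 20% in MTH-WT and at 13.0%, 12.8% and 0% in MTH-D.

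**Figure D2:**
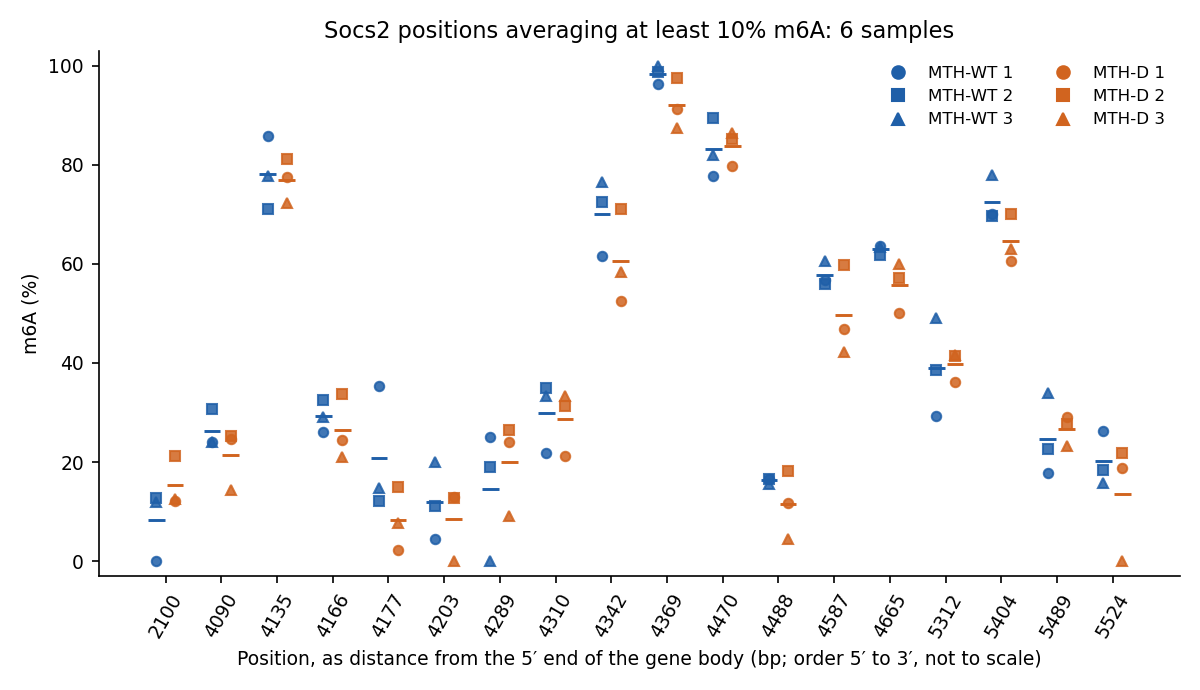
m6A (%) in each of the 6 samples at the 18 Socs2 positions averaging at least 10%, in order from 5′ to 3′ and named by their distance in bp from the 5′ end of the gene body. Symbols mark the sample number, colours the group and short bars the group means of n = 3. MTH-D samples 1 and 3 both lie below the other samples at 7 positions, 3 of them among the 4 that average 50% to 70%. This count was not made over the whole table.

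Across the 18 positions, MTH-D sample 3 was the lowest of the 6 samples at 7 and MTH-D sample 1 at 5, and neither was the highest at any. MTH-WT sample 3 was the highest at 7. MTH-D sample 2 was the lowest at 0 positions and the highest at 4. These counts were not made over all positions averaging at least 10%. By sample mean over all of those, MTH-D 3 and MTH-D 1 were also lowest (35.8% and 37.0%) and MTH-D 2 highest (43.3%). The order of the positions by level was nonetheless much the same in every library: over the 61 positions, Pearson's r between 2 libraries ran from 0.941 (MTH-WT 1 and MTH-D 3) to 0.994 (MTH-WT 2 and MTH-D 2) among the 15 pairs of libraries. These r are across positions of 1 gene, which are not independent, and describe the profile only.

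The first comparison asked whether Socs2 m6A as a whole differed between MTH-D and MTH-WT cells. By sample, the mean over the 18 positions was 35.4% in MTH-D 3, 37.6% in MTH-D 1, 41.0% in MTH-WT 1, 42.7% in MTH-WT 2, 43.7% in MTH-WT 3 and 44.2% in MTH-D 2. The 2 lowest samples were thus MTH-D and so was the highest, and the groups overlapped. The difference of the group means was -3.39 points (two-sided exact permutation test, p = 0.40, n = 3 each, where 3 samples against 3 cannot go below 0.10). It was larger than the SD of the MTH-WT samples, 1.34, and smaller than that of the MTH-D samples, 4.62. No step between neighbours in this order was larger than the SD of 4.62 among MTH-D samples; the largest was 3.45 points.

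Over all 61 positions the mean was 14.0%, 14.0% and 14.3% in MTH-WT samples 1 to 3 and 12.4%, 14.4% and 11.6% in MTH-D samples 1 to 3. The difference was -1.33 points, from 14.1% ± 0.179 to 12.8% ± 1.46 (SD, n = 3 each; exact permutation test, p = 0.40). The MTH-D samples thus spread more widely than the MTH-WT samples. At the 43 positions averaging under 10% alone, MTH-WT samples averaged 2.27% ± 0.390 and MTH-D samples 1.80% ± 0.157 (SD, n = 3 each). Of these 43, 38 were listed at exactly 0 in at least 1 sample.

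By number, the mean over the 18 positions differed by -3.45 points for number 1 and -8.28 points for number 3, and was 1.56 points higher in MTH-D for number 2. At single positions, MTH-D was lower at 12 of 18 (66.7%) for number 1, at 14 of 18 (77.8%) for number 3 and at 6 of 18 (33.3%) for number 2. Over all positions averaging at least 10% these shares were 58.7%, 61.8% and 43.6%, so that over the table too MTH-D was lower at most positions for numbers 1 and 3 and at a minority for number 2. It was lower in all 3 pairs at 3 positions (95248377, 95248673 and 95248700), or 16.7%, close to the 16.4% of all positions averaging at least 10%. With numbers 1 and 3 taken alone, MTH-WT samples averaged 42.3% ± 1.87 and MTH-D samples 36.5% ± 1.54 (SD, n = 2 each). The difference was -5.87 points, and the groups did not overlap (p = 0.333 by the exact permutation test, which cannot go lower with 2 samples a group). Leaving out MTH-D sample 2 alone gave -5.98 points, and leaving out MTH-D sample 3 gave -1.55 points.

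**Figure D3:**
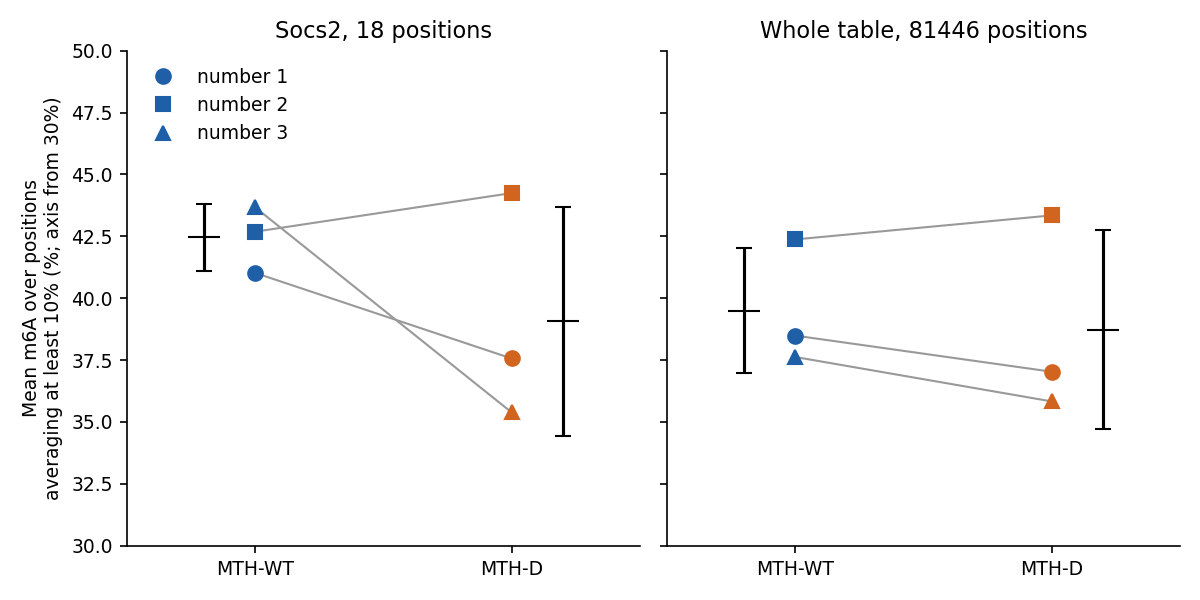
Mean m6A (%; the axis starts at 30%) over positions averaging at least 10%, for the 18 of Socs2 (left) and for all 81446 of the table (right), by sample. Grey lines join samples of the same number and black bars show the mean ± SD of n = 3; at Socs2 the line of number 3 drops by 8.28 points, while that of number 2 goes up in both panels.

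The samples also differed over the whole table. Over the 81446 positions averaging at least 10%, the samples numbered 2 were the highest in both groups, at 42.4% in MTH-WT and 43.3% in MTH-D, and the other 4 lay between 35.8% and 38.5%. The difference at Socs2 was therefore also taken relative to that mean in each sample. Socs2 stood 2.53, 0.313 and 6.04 points above it in MTH-WT samples 1 to 3, and at 0.536, 0.903 and -0.442 points in MTH-D samples. The difference of the groups in this measure was -2.63 points (exact permutation test, p = 0.30), and the 2 groups overlapped.

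The next question was where Socs2 lay among other parts of the genome. The table was cut into windows of 32 kb, and the 5560 windows with at least 5 positions averaging 10% or more were compared. The window around Socs2 held the 61 positions and no other row, so its value is that of the gene. In limma across these windows, its difference was -3.39 points with an SE of 3.62 and an adjusted p of 1.00 (Benjamini-Hochberg). The median window differed by -0.779 points. Of all windows, 390 (7.01%) had a difference as low as that of Socs2 or lower. Over the samples numbered 1 and 3 this share was 3.53%, with an adjusted p of 0.647. Over those samples Socs2 was 1 of 354 windows (6.37%) with an MTH-D mean at least 5 points lower. Over all 6 samples it was not among the 112 windows (2.01%) with such a difference. With the 6 samples, 1 of the 5560 windows (0.018%) had an adjusted p under 0.05, and it was not that of Socs2.

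**Figure D4:**
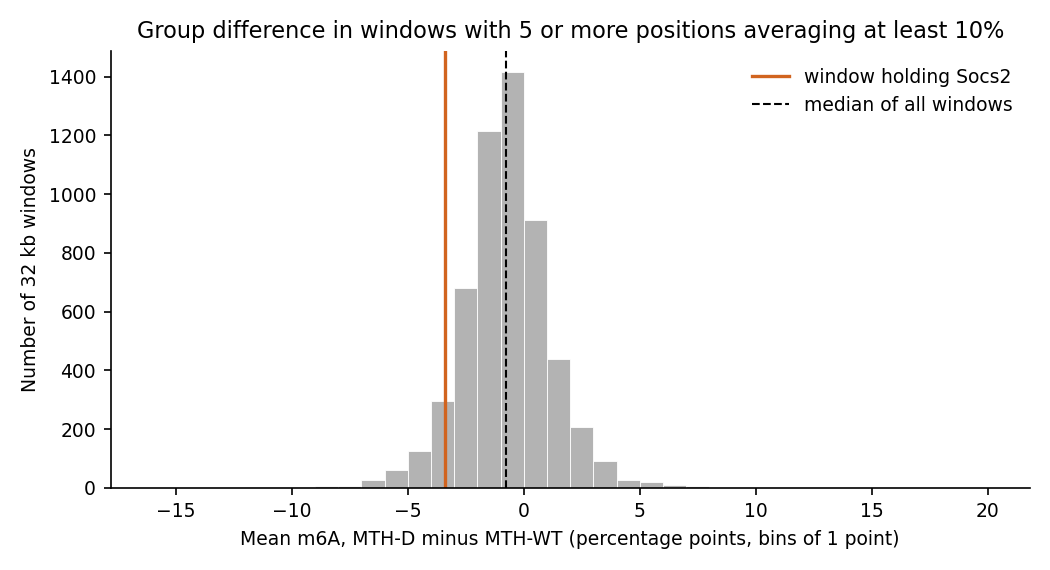
Number of 32 kb windows by their difference in mean m6A, MTH-D minus MTH-WT (percentage points, bins of 1 point), over the 5560 windows with at least 5 positions averaging 10% or more, n = 3 samples each. The solid line marks the window of Socs2 at -3.39 points and the dashed line the median window at -0.779 points; Socs2 lies on the lower flank and within the range of the other windows.

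Among single positions, 0 of the 61 passed an adjusted p of 0.05 in limma over all 567667 rows, nor did any other row (0%). The lowest adjusted p at Socs2 was 0.860. An unadjusted p under 0.05 was found in limma at 6 of the 61 (9.84%), against 3.22% of all rows. Of the 6, 5 were lower in MTH-D, against 8792 of the 18299 such rows of the table. Positions of 1 gene are read from the same molecules, so these 6 are not independent of each other. Besides position 95248673, all of them averaged under 7%. Position 95248063 was at 7.89%, 1.54% and 4.35% in MTH-WT samples 1 to 3 and at 0%, 0.67% and 0% in MTH-D samples. Position 95250842 was at 5.88%, 4.84% and 7.14% in MTH-WT and at 0%, 3.77% and 0% in MTH-D. Position 95250907 was at 20%, 4.27% and 7.69% in MTH-WT and at 2.17%, 2.11% and 0% in MTH-D. Several of the MTH-D values at these 3 were listed at 0. Picking positions by p largely brings about a separation of the groups, so the separation at these positions is not a result about Socs2. Position 95247525 was listed at 0 in all MTH-D samples and at 2.38%, 0.44% and 1.61% in MTH-WT samples. Position 95248230 went the other way, listed at 0 in all MTH-WT samples and at 1.96%, 0.84% and 4.17% in MTH-D samples.

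By size, 7 of the 18 positions averaging at least 10% (38.9%) had an MTH-D mean at least 5 points lower, against 15.2% of all such positions. Higher by as much were 2 of 18 (11.1%), against 9.28% of all. With numbers 1 and 3 alone there were 10 such lower and 1 such higher positions, or 55.6% and 5.56%, against 22.5% and 9.47% of all. Without MTH-D sample 3 the count of lower positions was 4, and without MTH-D sample 2 it was 11. The count of higher positions was 1 without MTH-WT sample 1 or MTH-D sample 1, and 0 without MTH-D sample 2. By level, the mean difference was -7.70 points at the 2 Socs2 positions averaging 40 to 60% and -6.24 points at the 3 averaging 60 to 80%. Over all rows of these levels it was -1.30 and -1.17 points. It was -2.48 points at the 6 positions averaging 10 to 20%, -1.28 points at the 5 averaging 20 to 40% and -2.82 points at the 2 averaging 80% or more. Over all rows of these levels it was -0.41, -0.84 and -0.47 points. The mean difference at Socs2 was thus lower than that of the table at each of the 5 levels, with few positions in each. The level of 10 to 20% includes position 95248865 at -12.4 points. The 2 positions of the top level differed by -6.23 and 0.59 points. These counts and means were not tested. The study listed genes with an average difference of 5% or more in these libraries, and Socs2 was among its top 10. A larger difference than over the table is therefore partly built in by that choice.

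Values listed at exactly 0 were unevenly spread over the libraries at Socs2. Of the 61 positions, 5 were at 0 in MTH-WT 2 and 6 in MTH-D 2. In the other samples 27 (MTH-WT 1), 23 (MTH-WT 3), 19 (MTH-D 1) and 34 (MTH-D 3) were. As a share, MTH-D 3 had 55.7% and MTH-WT 2 had 8.20% of Socs2 positions at 0, while over the whole table these samples had 34.0% and 40.2%. The samples numbered 2 thus had the fewest zeros at Socs2 but not over the table. At the 18 positions averaging at least 10%, 4 (22.2%) had a 0 in some sample, against 2.42% of such positions in the table. The median SD among samples at these positions was 6.56 points in MTH-WT and 6.25 points in MTH-D at Socs2, and 4.93 and 5.55 points over the table. The smallest nonzero value at Socs2 was 4.17% in MTH-D 3, 0.43% in MTH-WT 2 and 0.58% in MTH-D 2. In the rest it was 1.37% to 2.33%. A low nonzero fraction needs many reads, so reads at Socs2 were probably fewest in MTH-D 3 and most in the samples numbered 2. Reads per position were not given, and the part of depth in these zeros and in the group difference was not tested.

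**Figure D5:**
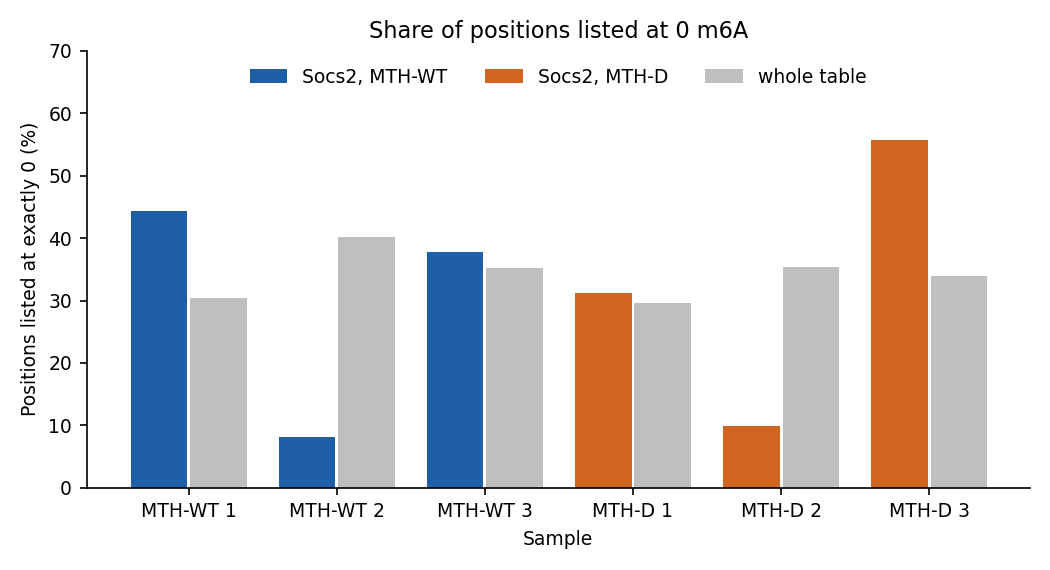
Share (%) of positions listed at exactly 0 m6A in each sample, for the 61 Socs2 positions (blue for MTH-WT, orange for MTH-D) and for all rows of the table (grey). At Socs2 the share was 8.20% and 9.84% in the samples numbered 2 and 31.1% to 55.7% in the others, while over the table it ran from 29.6% to 40.2%.

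The windows whose mean over positions averaging at least 10% followed that of Socs2 most closely over the 6 samples lay at chr1:93216001-93248000, chr9:25056001-25088000 and chr5:138432001-138464000 (Pearson's r of 0.990, 0.980 and 0.980 over 6 samples). They were taken from 3081 windows with at least 10 such positions, of which 141 had r above 0.9. Their lowest sample was MTH-D 3 and their highest MTH-D 2, as at Socs2 and as over all positions averaging at least 10%. Choosing windows by r largely brings this about. The samples share their libraries over all windows, so this likeness is a description. Genes in these windows, and the other genes of the growth hormone and SOCS pathway, were not analysed here because no GRCm39 annotation was used.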

How the data were processed

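Nanopore direct RNA libraries (SQK-RNA004) were made from 1000 ng of total RNA per sample and run on 1 PromethION flow cell each for up to 72 h. Per the submitters' processing notes, minimap2 2.26, SAMtools and GRCm39 were used. The basecaller, the modification caller and the coverage filter are not given in the sources used here. The authors deposited the fraction of m6A per position and sample, with 4 decimals, no strand and no coverage. Depth is thus not stated, and no interval was computed. Here fractions were converted to percent.

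Positions of the file are counted from 0 and are printed from 1. Over the first 59 Mb of chromosome 4, 93.8% of 9029 rows lay on an adenosine of DRACH in GENCODE M21 (GRCm38) exons when counted from 0, and 0.875% when counted from 1. That reference is of another build, so it was not used to place Socs2 positions.

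Sample means were compared by two-sided exact permutation tests. Positions (log2 odds of the percent, offset of 1 point) and windows of 32 kb (mean percent, at least 5 rows averaging 10% or more) were fitted in limma 3.58.1 (R 4.3.3), with Benjamini-Hochberg adjustment over all rows or windows. Windows replaced genes, as planned for a table without annotation of its build. Tested on simulated data, the position fit called 0 of 200 positions shifted by 2 in log2 odds and 166 of 200 shifted by 8. The window fit called 0 of 200 windows shifted by 10 points and 177 of 200 shifted by 20.

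To check the pairing, each sample's departure from the mean of its group was correlated between samples that share a number, over rows averaging at least 10%. The r were 0.164, 0.223 and 0.133 for numbers 1 to 3, and pairs by number were therefore formed as well. The labels do not say that samples of a group came from separate cultures, so p-values measure the spread between these samples. Named positions were the 10 highest by mean and the 5 largest differences each way among those averaging at least 10%. The others of these 18, and those with an unadjusted p under 0.05, were added after their values were seen. The members, lists and tests were chosen with earlier results of these data known.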

Additional observations from a re-analysis of the deposited data

Results flagged for a closer look

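The samples numbered 2 went against the other pairs. Over the 18 Socs2 positions averaging at least 10%, MTH-D was 1.56 points above MTH-WT in the samples numbered 2, whereas it was 3.45 points below in those numbered 1 and 8.28 points below in those numbered 3 (differences of -3.45 and -8.28). With 1 pair on the other side, this was not tested. Over the table the samples numbered 2 also differed in that direction, by 0.970 points.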

How the results depend on the processing

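The difference in mean Socs2 m6A kept its sign in all 16 alternatives for the 18 positions (-5.98 to -0.948 points) and in all 13 for the 61 positions (-3.21 to -0.627 points). Their exact permutation p lay between 0.10 and 1.00. With the replicate block the differences were -3.39 and -1.33 points (exact sign-flip permutation test, p = 0.50 for both, where 3 pairs cannot go below 0.25), equal to the unpaired ones by arithmetic. The block changed no call. Leaving out 1 sample gave -5.98 to -1.55 points over 18 positions. Among alternatives chosen after seeing the data, the samples numbered 1 and 2 gave -0.948 points, and leaving out position 95248865 gave -2.86 points. In limma, 0 of the 61 positions passed in all 11 alternatives (lowest adjusted p 0.0924, without MTH-D sample 2), and the window of Socs2 did not pass in any of 11 (lowest adjusted p 0.591). Counts of positions depended on the samples: with 1 sample left out, 4 to 11 were lower and 0 to 3 higher by 5 points or more. Over the samples numbered 1 and 3, 1 was higher. At 10 points, 1 was lower and 0 higher. The alternatives restricted to exons and to DRACH were not run, since no genome or annotation of GRCm39 was used. The unstated depth limits each single position, and 3 samples a group limit every test.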
